A study of Bos indicus with 8 samples.

Results

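The genes described here belong to enzyme families known for removing reactive aldehydes, alcohols and electrophiles from cells. Not every member does so, and ALDH18A1, for example, is a synthase. The genes were measured in bovine cumulus cells cultured with and without adenosine. Members were chosen by gene symbol alone, as the ALDH (aldehyde dehydrogenase), ADH (alcohol dehydrogenase), AKR (aldo-keto reductase), GST (soluble glutathione transferase), MGST (microsomal glutathione transferase), DHRS (dehydrogenase/reductase SDR family) and RDH (retinol dehydrogenase) genes. They were 62 of the 15229 named genes on the array, with 92 probes. Cumulus cells are the somatic cells that surround the oocyte, and the labels give the animals as Bos indicus. The adenosine pools came from cumulus-oocyte complexes cultured for 6 h with 3 mM adenosine, a purine nucleoside, and the control pools from complexes without it. Both groups had recombinant human FSH at 0.5 µg/ml, 17β-oestradiol at 1 µg/ml, 10% fetal bovine serum and 0.2 mM pyruvic acid, and both came from slaughterhouse ovaries, from follicles of 3 to 6 mm. Each group had 4 pools, labelled with 10 per pool, and adenosine and control pools of one number were set against each other on 2 two-colour arrays with the dyes exchanged. These 4 pool pairs are the replicates. The labels call them biological replicates and do not say whether they came from separate animals, and a p-value here reflects only how these pools vary.

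Aldehydes form when lipids are oxidised and when amino acids, alcohols and vitamin A are broken down, and they react with proteins and DNA. Aldehyde dehydrogenases oxidise them to acids, while aldo-keto reductases and short-chain dehydrogenases reduce them or their ketone relatives to alcohols. Glutathione transferases couple electrophiles such as lipid aldehydes to the tripeptide glutathione, and in the ovary the alpha class is abundant in steroid-producing cells. The retinol dehydrogenases and the ALDH1A enzymes of the same families make and clear retinaldehyde and retinoic acid, which act as signals rather than as waste.

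Levels are log2 intensities of a gene's brightest probe in each pool, listed for pools 1 to 4, and ratios are log2 ratios of adenosine over control with the SD between the 4 pool pairs. A probe's brightness depends on its sequence, so levels are compared between pools and never between genes. A change passed at an adjusted p under 0.05 in limma, over all 31948 probes above the detection level, of which 5960 were higher and 5894 lower with adenosine. On 7 arrays between 71.1% and 87.4% of the probes were detected in each channel. The pair 3 array on which Cy3 marked adenosine had 45.4% in the adenosine channel and 41.3% in the control channel, and the counts of changed members were the same without it. In bulk RNA, fewer cells of a type and less RNA per cell cannot be told apart.

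Of the 62 genes, 53 had a detected probe, and 26 of these rose with adenosine while 2 fell and 25 did not pass. Among all 12320 named genes tested, 21.7% were higher and 20.8% were lower, so the share of members that were higher (49.1%) was above that of the array and the share that were lower (3.77%) below it. The largest ratios belonged to ALDH18A1, GSTA4, AKR7A2 and AKR1B1, each over 1.1 on the log2 scale. A log2 ratio above 1 was measured for 9 members (16.98%), against 3.64% of all named genes, and a ratio below -1 for 0 members, against 7.79%. All 4 adenosine pools lay above all 4 control pools for 18 members, a pattern that 14.3% of named genes had. The median log2 ratio was 0.29 over the members and 0.0035 over all genes tested. Under median centring of the arrays in place of loess, 20 members were higher and 5 lower, against 16.01% and 26.7% of all genes, and the medians were 0.13 and -0.0085. At an unadjusted p under 0.05 in limma, the ALDH, ADH, AKR, GST, MGST and DHRS families still had 0 lower genes, 0 of the 2 ADH genes passed, and RDH had 3 lower. The count of 26 fell to 16 when pool pair 4 was left out, with 12.1% of all genes then higher, and to 13 when the pairing of pools was ignored, with 12.4% of all genes higher.

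**Figure D1:**
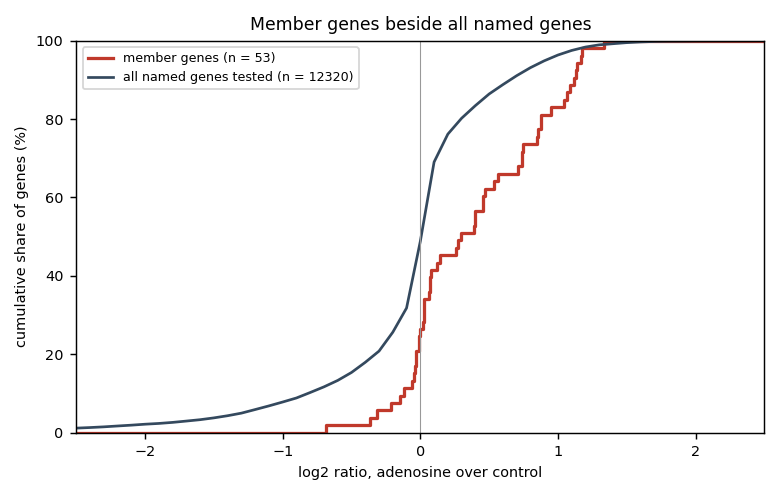
Cumulative share of genes (percent, vertical axis) against the mean log2 ratio of adenosine over control (horizontal axis) for the 53 tested member genes and for all 12320 named genes tested. The member curve lies to the right of the other, with medians of 0.29 and 0.0035.

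The members were brighter than the array as a whole, with a median log2 intensity of 7.88 against 7.19 over all named genes tested. The counts were therefore also taken over probes above the detection level in both channels of all 8 arrays. Of the 32 members left, 25 were higher and 2 were lower, against 29.5% and 27.4% of the 7701 named genes with such probes. Their median ratio was 0.74, against 0.0056 for those genes. The 5 that did not pass were ADH5, ALDH1L2, ALDH5A1, DHRS11 and GSTM1. The called genes were not all the same as before. DHRS1 (higher, adjusted p = 0.0356 in limma) and RDH14 (lower, adjusted p = 0.0441) passed here, and GSTA3, DHRS12 and RDH11 were not among the 32.

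**Figure D2:**
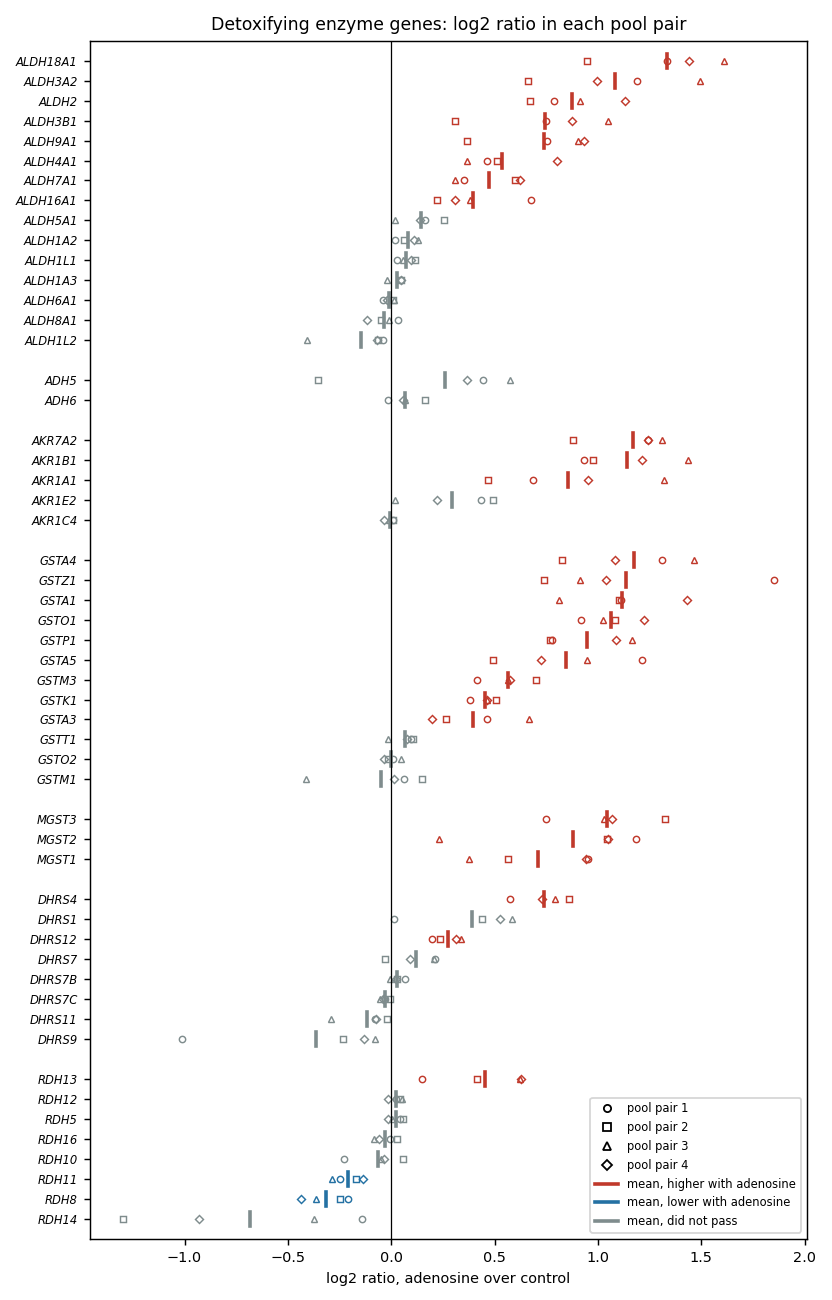
Log2 ratio of adenosine over control (horizontal axis) in each of the 4 pool pairs for the 53 member genes with a detected probe, grouped by family, with the mean as a bar. The 26 genes that rose, most of them ALDH, AKR, GST and MGST genes, have positive ratios in every pair, and RDH8 and RDH11 lie below 0 in all 4 pairs.

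Aldehyde dehydrogenases rose for 8 of the 15 measured genes and fell for none, with the other 7 not passing, though under median centring of the arrays ALDH1L2 was lower (-0.46, adjusted p = 0.00958). ALDH18A1, the mitochondrial synthase that makes the precursor of proline and ornithine from glutamate, had log2 levels of 13.50, 13.43, 13.72 and 13.84 in the adenosine pools, against 12.17, 12.48, 12.11 and 12.40 in the control pools. ALDH18A1 was 2.52-fold higher with adenosine (mean log2 ratio 1.33 ± 0.28, adjusted p = 0.00281 in limma), and its lowest adenosine pool lay 0.95 above its highest control pool. ALDH4A1, which runs part of proline breakdown towards glutamate in the same organelle, had log2 levels of 7.24, 7.44, 7.51 and 7.93 in the adenosine pools, against 6.77, 6.92, 7.15 and 7.13 in the control pools. Its pools were also separate, at a smaller size of 1.45-fold (mean log2 ratio 0.54 ± 0.19, adjusted p = 0.00997).

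Enzymes of fatty and small aldehydes made up 3 of the other 6 rises. ALDH3A2, the fatty aldehyde dehydrogenase of the endoplasmic reticulum, had log2 levels of 11.21, 10.94, 11.51 and 11.31 in the adenosine pools, against 10.03, 10.28, 10.02 and 10.31 in the control pools, and was 2.12-fold higher (mean log2 ratio 1.08 ± 0.35, adjusted p = 0.00756). Its other detected probes rose too, by 1.32 and 0.73 on the log2 scale, so the direction did not rest on 1 probe. ALDH2, the mitochondrial enzyme that oxidises acetaldehyde, had log2 levels of 11.69, 11.75, 11.11 and 11.45 in the adenosine pools, against 10.90, 11.08, 10.19 and 10.32 in the control pools. The ALDH2 groups were just separate, by 0.029 on the log2 scale, while every pair showed a rise (mean log2 ratio 0.88 ± 0.20, adjusted p = 0.00336). ALDH3B1, which acts on aldehydes from membrane lipids, had log2 levels of 8.19, 8.0, 8.38 and 8.46 in the adenosine pools, against 7.44, 7.69, 7.33 and 7.59 in the control pools, separate between the groups (mean log2 ratio 0.75 ± 0.32, adjusted p = 0.0157).

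Amino acid and carnitine pathways were represented as well. ALDH9A1, an aldehyde dehydrogenase of carnitine synthesis, had log2 levels of 12.004, 12.30, 13.36 and 13.91 in the adenosine pools, against 11.25, 11.94, 12.46 and 12.97 in the control pools. Its groups overlapped because pools 3 and 4 were brighter than pools 1 and 2 under both conditions, and each pair still showed a rise of between 0.37 and 0.93 (mean log2 ratio 0.74 ± 0.26, adjusted p = 0.00979). ALDH7A1, an enzyme of lysine breakdown, had log2 levels of 8.78, 9.12, 8.33 and 8.58 in the adenosine pools, against 8.43, 8.52, 8.02 and 7.96 in the control pools, overlapping between the groups (mean log2 ratio 0.47 ± 0.16, adjusted p = 0.00991). Its 3 detected probes all passed, at ratios of 0.47, 0.58 and 0.24. ALDH16A1 had log2 levels of 8.43, 8.35, 8.09 and 7.98 in the adenosine pools, against 7.75, 8.13, 7.71 and 7.67 in the control pools, overlapping between the groups, with a rise in every pair (mean log2 ratio 0.40 ± 0.20, adjusted p = 0.0256). The calls of ALDH2, ALDH3A2 and ALDH18A1 held in all 17 processing alternatives, and ALDH16A1 lost its call in 5 of them.

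The 7 measured ALDH genes that did not pass had ratios between -0.14 and 0.14. Among them were ALDH5A1, the succinic semialdehyde dehydrogenase of GABA breakdown (0.14, adjusted p = 0.0745), the folate enzymes ALDH1L1 at 0.073 and ALDH1L2 at -0.14, ALDH6A1 of valine breakdown at -0.009, and ALDH8A1 at -0.036. ALDH5A1 passed as higher without background correction (adjusted p = 0.0486), without pool pair 3 (0.0432), with adenosine in Cy3 alone (0.0303) and with 8 arrays and a random block (0.0209). The retinaldehyde dehydrogenases, which make retinoic acid, showed little signal. ALDH1A2 had a ratio of 0.08 (adjusted p = 0.101) and ALDH1A3 one of 0.029, whose sign differed between the dye orientations (-0.13 where Cy5 marked adenosine and 0.19 where Cy3 did). Probes of ALDH1A1, ALDH1B1 and ALDH3A1 did not reach the detection level in enough pools to be tested.

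Alcohol dehydrogenases gave no passing gene among 2 measured, and ADH1C and ADH4 were not detected widely enough. ADH5, which oxidises the glutathione adduct of formaldehyde and also reduces nitrosoglutathione, had log2 levels of 10.59, 10.39, 9.79 and 9.79 in the adenosine pools, against 10.14, 10.75, 9.22 and 9.42 in the control pools. Pool pairs 1, 3 and 4 had higher ADH5 with adenosine, at ratios of 0.44, 0.58 and 0.37, while pair 2 had a ratio of -0.35 (mean log2 ratio 0.26 ± 0.42, adjusted p = 0.319). Without pool pair 2 it passed as higher. ADH6 had a ratio of 0.067.

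Aldo-keto reductases rose for 3 of the 5 measured genes. AKR7A2, a reductase of succinic semialdehyde and of aflatoxin dialdehyde, had log2 levels of 11.97, 12.13, 11.91 and 12.06 in the adenosine pools, against 10.72, 11.25, 10.60 and 10.82 in the control pools. AKR7A2 was 2.25-fold higher (mean log2 ratio 1.17 ± 0.19, adjusted p = 0.00178), with separate groups and with pair 2 lower than the other pairs. AKR1B1, the aldose reductase that in cattle also makes prostaglandin F2α, had log2 levels of 12.47, 12.47, 11.59 and 11.60 in the adenosine pools, against 11.54, 11.49, 10.15 and 10.39 in the control pools. The groups were separate by only 0.045 because pools 1 and 2 were brighter than pools 3 and 4 under both conditions, and within pairs AKR1B1 was 2.20-fold higher (mean log2 ratio 1.14 ± 0.23, adjusted p = 0.00266), with a second probe at 1.14. AKR1A1, the general aldehyde reductase, had log2 levels of 12.05, 11.79, 11.76 and 11.66 in the adenosine pools, against 11.36, 11.32, 10.44 and 10.70 in the control pools, separate between the groups (mean log2 ratio 0.86 ± 0.37, adjusted p = 0.0162). A second AKR1A1 probe also passed, at a ratio of 0.20, and the mean of both probes was 0.53.

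AKR1A1 did not pass under median centring of the arrays or without pool pair 4, AKR1B1 did not when the pairing was ignored, and AKR7A2 passed in all 17 alternatives. AKR1E2, a reductase of 1,5-anhydrofructose, did not pass at a ratio of 0.29 (adjusted p = 0.072), and neither did AKR1C4, a steroid reductase, at -0.0064. AKR1E2 was close to the detection level, above it on 6 of 8 adenosine and 7 of 8 control channels. It passed as higher at adjusted p = 0.0212 with a normexp offset of 0, 0.0359 under median centring and 0.0114 in the authors' deposited values. It also passed without pool pair 3 (0.0334) and with 8 arrays and a random block (0.0103). AKR1B10 and AKR1D1 were not detected widely enough.

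**Figure D3:**
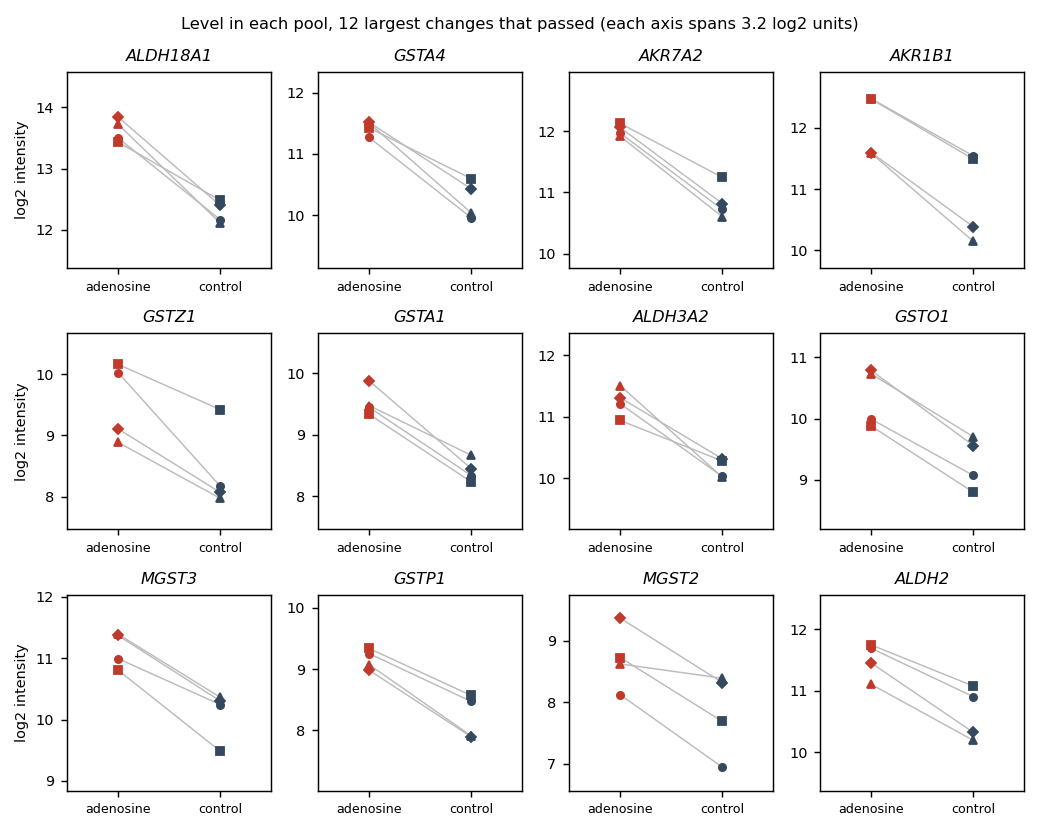
Log2 intensity (vertical axis, each spanning 3.2 log2 units) in the 4 adenosine pools, at the left of each panel, and the 4 control pools, at the right, for the 12 members with the largest passing changes, with lines joining the pools of a pair. Every line runs higher at its adenosine end, and the groups overlap only for GSTZ1 and MGST2.

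Soluble glutathione transferases had 9 rises among 12 measured genes and no fall, though under median centring GSTM1 was lower (-0.41, adjusted p = 0.0251). The alpha class rose throughout, at 4 of 4 genes. GSTA4, the transferase best known for conjugating the lipid aldehyde 4-hydroxynonenal, had log2 levels of 11.27, 11.42, 11.50 and 11.51 in the adenosine pools, against 9.96, 10.60, 10.04 and 10.43 in the control pools. GSTA4 was 2.25-fold higher (mean log2 ratio 1.17 ± 0.28, adjusted p = 0.00366), and no control pool reached an adenosine pool. GSTA1, which conjugates electrophiles and also isomerises steroids, had log2 levels of 9.45, 9.34, 9.48 and 9.88 in the adenosine pools, against 8.34, 8.23, 8.67 and 8.45 in the control pools, likewise separate, at a 2.16-fold higher level (mean log2 ratio 1.11 ± 0.25, adjusted p = 0.00337).

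GSTA5, another alpha transferase, had log2 levels of 15.14, 14.96, 14.72 and 14.68 in the adenosine pools, against 13.93, 14.46, 13.77 and 13.95 in the control pools. These groups were separate (mean log2 ratio 0.85 ± 0.31, adjusted p = 0.0105), but the ratio was 1.54 where Cy5 marked adenosine and 0.15 where Cy3 did, and this difference between orientations passed (adjusted p = 4.38e-05). The raw intensity of the GSTA5 probe lay between 55.6% and 84.0% of the highest probe of its array in the adenosine channel and between 35.01% and 70.6% in the control channel, and on the 4 arrays where Cy3 marked adenosine the rise did not pass by itself. GSTA3, known for steroid isomerisation in steroid-producing tissue, was close to the detection level and had log2 levels of 6.93, 6.59, 7.03 and 6.50 in the adenosine pools, against 6.47, 6.32, 6.37 and 6.30 in the control pools. Its groups were separate by 0.027 (mean log2 ratio 0.40 ± 0.21, adjusted p = 0.0303), and it did not pass when any single pool pair was left out.

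The remaining classes rose for 5 genes. GSTO1, an omega transferase that reduces dehydroascorbate, had log2 levels of 9.99, 9.88, 10.73 and 10.78 in the adenosine pools, against 9.07, 8.80, 9.70 and 9.56 in the control pools, separate and with close agreement between pairs (mean log2 ratio 1.06 ± 0.13, adjusted p = 0.00104). GSTP1, the pi transferase, had log2 levels of 9.25, 9.34, 9.07 and 8.98 in the adenosine pools, against 8.47, 8.57, 7.91 and 7.90 in the control pools, again separate (mean log2 ratio 0.95 ± 0.21, adjusted p = 0.00306). The other GSTP1 probes also passed, at ratios of 0.85 and 0.18, and the second GSTO1 probe at 0.53. GSTZ1, which isomerises maleylacetoacetate in tyrosine breakdown, had log2 levels of 10.02, 10.16, 8.89 and 9.11 in the adenosine pools, against 8.17, 9.42, 7.97 and 8.07 in the control pools.

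The GSTZ1 groups overlapped, since control pool 2 at 9.42 was above adenosine pools 3 and 4, and the rise within pairs lay between 0.74 and 1.85 (mean log2 ratio 1.13 ± 0.49, adjusted p = 0.0167). GSTM3, a mu transferase, had log2 levels of 12.88, 13.01, 12.40 and 12.45 in the adenosine pools, against 12.47, 12.31, 11.83 and 11.87 in the control pools, overlapping by 0.068, with a rise in every pair (mean log2 ratio 0.56 ± 0.12, adjusted p = 0.00316). GSTK1, the kappa transferase of mitochondria and peroxisomes, had log2 levels of 7.71, 7.59, 7.10 and 7.10 in the adenosine pools, against 7.33, 7.09, 6.64 and 6.64 in the control pools. Its groups overlapped because pools 1 and 2 were brighter than pools 3 and 4 under both conditions, while its pair ratios were among the most even, between 0.38 and 0.50 (mean log2 ratio 0.45 ± 0.051, adjusted p = 0.00147).

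GSTM1, another mu transferase, did not pass (mean log2 ratio -0.047 ± 0.25, adjusted p = 0.762) and had log2 levels of 9.67, 9.40, 9.22 and 9.67 in the adenosine pools, against 9.61, 9.25, 9.64 and 9.65 in the control pools. The groups overlapped, and none of its 4 detected probes passed, with ratios between -0.047 and 0.11. GSTT1 had a ratio of 0.065 and GSTO2 one of 0.00051, both without passing, and GSTT3 was not detected widely enough. GSTA1, GSTA4, GSTO1 and GSTP1 held their calls in all 17 alternatives. The alpha and mu transferases have close copies, and since the probe sequences are not given in the sources used here, signal from a related gene cannot be separated.

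Microsomal glutathione transferases rose at all 3 genes. MGST3, a membrane enzyme with transferase and peroxidase activity, had log2 levels of 10.99, 10.81, 11.39 and 11.37 in the adenosine pools, against 10.24, 9.48, 10.36 and 10.30 in the control pools. MGST3 was 2.06-fold higher (mean log2 ratio 1.04 ± 0.23, adjusted p = 0.00329), and its groups were separate. MGST2, which can also make leukotriene C4, had log2 levels of 8.12, 8.73, 8.63 and 9.37 in the adenosine pools, against 6.94, 7.69, 8.39 and 8.32 in the control pools. Its ratio was 0.23 in pair 3 and between 1.04 and 1.18 in the others (mean log2 ratio 0.88 ± 0.43, adjusted p = 0.0238), the groups overlapped, and the call was lost in 5 alternatives, among them those without pool pair 1, 2 or 4. A second MGST2 probe passed at a ratio of 0.26, and the mean of both was 0.57.

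MGST1, the transferase of the endoplasmic reticulum and outer mitochondrial membrane, had log2 levels of 8.13, 8.09, 7.26 and 7.87 in the adenosine pools, against 7.18, 7.52, 6.88 and 6.93 in the control pools, and the highest control pool exceeded the lowest adenosine pool by 0.26 (mean log2 ratio 0.71 ± 0.29, adjusted p = 0.014). It did not pass without pool pair 4 or when the pairing was ignored. In the gene table of the Bos indicus assembly 3 pairs of members are listed next to each other. They are ALDH9A1 with MGST3, both higher, RDH11, which was lower, with RDH12, which did not pass, and ADH6, which did not pass, with ADH4, which was not tested. Symbols of 12 members are missing from that table, among them GSTA1, GSTA3, GSTA4, GSTA5, GSTM1 and AKR1B1, so their neighbours could not be looked up.

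Short-chain dehydrogenases of the DHRS family mostly did not pass, with 2 rises among 8 measured genes (25%), against 21.7% higher among all named genes. DHRS4, a peroxisomal reductase of retinaldehyde and other carbonyls, had log2 levels of 10.34, 10.16, 9.02 and 8.88 in the adenosine pools, against 9.76, 9.30, 8.23 and 8.14 in the control pools. The groups overlapped, with pools 1 and 2 brighter than pools 3 and 4 under both conditions, and the pair ratios were even, between 0.57 and 0.86 (mean log2 ratio 0.74 ± 0.12, adjusted p = 0.00188). DHRS12 rose by a smaller amount (mean log2 ratio 0.27 ± 0.066, adjusted p = 0.00627), with separate groups close to the detection level. The other 6 had ratios between -0.36 and 0.39.

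DHRS1 was the highest of those 6, at 0.39 with an adjusted p of 0.0547, and passed without pool pair 1, whose ratio was 0.012 against 0.44 to 0.59 in the other pairs. It also passed with adenosine in Cy5 alone (adjusted p = 0.0176), in the authors' deposited values (0.0216) and with 8 arrays and a random block (0.00559). The other detected DHRS1 probes had ratios of 0.084 and 0.045 and did not pass. DHRS9, a dehydrogenase of retinol and steroids, was above the detection level on 1 of 8 adenosine channels and 7 of 8 control channels, and had log2 levels of 6.12, 6.07, 6.09 and 6.08 in the adenosine pools, against 7.13, 6.31, 6.17 and 6.21 in the control pools. All control pools lay above all adenosine pools, yet control pool 1 was far above the others and the difference did not pass (mean log2 ratio -0.36 ± 0.44, adjusted p = 0.201). The remaining ratios were 0.12 for DHRS7, 0.029 for DHRS7B, -0.032 for DHRS7C and -0.12 for DHRS11, a 17β-hydroxysteroid dehydrogenase. DHRS13 was not detected widely enough.

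The retinol dehydrogenases held both of the falls among the members and 1 rise, in 8 measured genes. These shares were 25% lower and 12.5% higher, against 20.8% lower and 21.7% higher among all named genes tested. RDH8, known as the all-trans-retinol dehydrogenase of photoreceptors, had log2 levels of 8.22, 8.24, 7.95 and 7.94 in the adenosine pools, against 8.43, 8.49, 8.31 and 8.38 in the control pools. All control pools lay above all adenosine pools, a 1.24-fold lower level with adenosine (mean log2 ratio -0.32 ± 0.10, adjusted p = 0.0103). RDH11, a reductase of retinaldehyde, had log2 levels of 6.41, 6.43, 6.31 and 6.35 in the adenosine pools, against 6.66, 6.60, 6.59 and 6.49 in the control pools, with the groups again apart (mean log2 ratio -0.21 ± 0.068, adjusted p = 0.0129). RDH11 was close to the detection level, above it on 7 of 8 channels in each group. RDH8 did not pass in the authors' deposited value table, and RDH11 did not without pool pair 1.

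RDH13, a mitochondrial member, had log2 levels of 8.57, 8.33, 9.64 and 9.75 in the adenosine pools, against 8.42, 7.92, 9.02 and 9.12 in the control pools, overlapping between the groups. Its ratio was lowest in pair 1, at 0.15, and between 0.42 and 0.63 in the others (mean log2 ratio 0.45 ± 0.23, adjusted p = 0.025), and it lost its call in 5 alternatives. RDH14 had log2 levels of 8.55, 7.86, 9.23 and 8.35 in the adenosine pools, against 8.69, 9.16, 9.60 and 9.28 in the control pools. The ratio was negative in all 4 pairs but uneven, at -0.14, -1.30, -0.37 and -0.93, and did not pass (adjusted p = 0.076). It passed as lower in 4 alternatives, at adjusted p = 0.0409 with a normexp offset of 0, 0.0299 under median centring, 0.0441 with the stricter filter and 0.00798 with 8 arrays and a random block. RDH10, which starts retinoic acid synthesis in the embryo, had a ratio of -0.063, and RDH5, RDH12 and RDH16 lay between -0.030 and 0.025.

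The pool pairs did not contribute equally to the 26 rises. The median ratio of these genes was 0.77 in pair 1 and 0.67 in pair 2, and pairs 3 and 4 had medians of 0.91 and 0.95. Pair 2 gave the lowest ratio for 12 of the 26 genes, pair 1 for 8, pair 3 for 5 and pair 4 for 1. All of them were nevertheless above 0 in every pair, the smallest single pair ratio being 0.15 for RDH13.

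Each slide held 1 dye orientation, so a difference between orientations measures dye and slide together. All 26 rises were positive in both orientations, with mean ratios of at least 0.27 where Cy5 marked adenosine and at least 0.15 where Cy3 did. A difference between orientations passed for 17 of the 26 genes, of which 14 had the larger ratio where Cy3 marked adenosine and 3 where Cy5 did. Apart from GSTA5 the difference was at most 0.38 on the log2 scale, the value of GSTO1 (0.87 with Cy5 marking adenosine and 1.25 with Cy3). Of all 53 members, 11 had mean ratios of opposite sign in the orientations, and 0 of these had a call. Single arrays gave a positive ratio on all 8 arrays for 25 of the 26 genes, and for GSTA5 on 7.

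**Figure D4:**
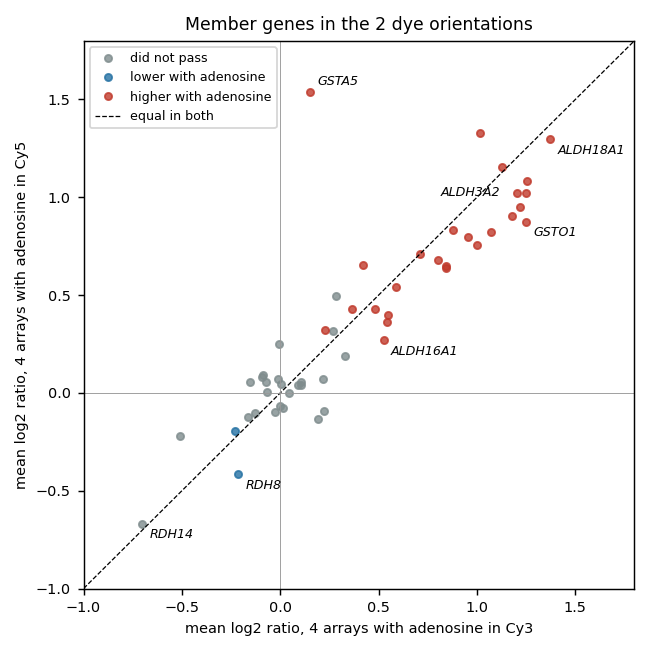
Mean log2 ratio of adenosine over control on the 4 arrays where Cy5 marked adenosine (vertical axis) against the 4 where Cy3 did (horizontal axis) for the 53 member genes, with a dashed line where both are equal. The 26 genes that rose lie in the upper right quadrant, and GSTA5 stands far above the line at 1.54 against 0.15.

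Genes around these enzymes moved in different directions. The counts of the related lists below stand beside 21.7% higher and 20.8% lower among all 12320 named genes tested. Peroxidases and other antioxidant enzymes, which remove hydrogen peroxide, lipid peroxides and superoxide, rose for 10 of 16 measured genes and fell for 0, with a median ratio of 0.97. GPX3, the secreted glutathione peroxidase, had log2 levels of 8.55, 8.92, 8.57 and 8.66 in the adenosine pools, against 7.41, 7.79, 7.16 and 7.25 in the control pools (mean log2 ratio 1.27 ± 0.16, adjusted p = 0.00107). CAT, catalase, had log2 levels of 11.97, 11.82, 12.82 and 12.87 in the adenosine pools, against 10.55, 10.63, 11.15 and 11.51 in the control pools (mean log2 ratio 1.41 ± 0.20, adjusted p = 0.00128). PRDX3, the mitochondrial peroxiredoxin, was 2.57-fold higher (mean log2 ratio 1.36 ± 0.28, adjusted p = 0.00265) and PRDX4, that of the endoplasmic reticulum, 2.06-fold higher (mean log2 ratio 1.04 ± 0.20, adjusted p = 0.00242). All 4 of these genes had separate groups. At an unadjusted p under 0.05 in limma, 1 gene, GPX2, was lower. The number that rose was 6 without pool pair 4, and median centring gave 9 rises and 3 falls.

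Glutathione synthesis and turnover genes gave 2 rises, 6 falls and 10 genes not passing among 18, and a median ratio of 0.0080. GCLC, the catalytic subunit of the enzyme that limits glutathione synthesis, had log2 levels of 6.54, 7.09, 6.71 and 7.10 in the adenosine pools, against 6.90, 7.55, 7.07 and 7.39 in the control pools and was 1.29-fold lower within pairs (mean log2 ratio -0.37 ± 0.071, adjusted p = 0.00332). GSR, which regenerates reduced glutathione, had log2 levels of 9.78, 9.97, 10.15 and 10.35 in the adenosine pools, against 10.63, 10.61, 10.93 and 10.58 in the control pools and was 1.54-fold lower (mean log2 ratio -0.63 ± 0.28, adjusted p = 0.0178). GLRX5, a mitochondrial glutaredoxin of iron-sulfur cluster assembly, was 2.35-fold lower (mean log2 ratio -1.23 ± 0.18, adjusted p = 0.00144), and LAP3, a leucine aminopeptidase, 1.78-fold lower (mean log2 ratio -0.83 ± 0.26, adjusted p = 0.00724). Without pool pair 2 or 3, or with the pairing ignored, 3 of the genes were lower, and without pool pair 3 or 4 none was higher. GGT6, called higher, and CHAC2, called lower, had ratios of opposite sign in the dye orientations.

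Other enzymes of carbonyls, quinones and epoxides rose for 14 of 23 measured genes and fell for 2, with a median ratio of 0.27. NQO1, the quinone reductase, had log2 levels of 7.36, 7.45, 6.82 and 7.01 in the adenosine pools, against 6.73, 6.73, 6.19 and 6.35 in the control pools (mean log2 ratio 0.66 ± 0.04, adjusted p = 0.000639). CRYZ, a quinone reductase first known as a lens protein, had log2 levels of 10.42, 10.61, 10.45 and 10.49 in the adenosine pools, against 9.002, 9.51, 8.94 and 9.19 in the control pools, separate between the groups (mean log2 ratio 1.33 ± 0.18, adjusted p = 0.00122). EPHX1, the microsomal epoxide hydrolase, was 1.42-fold higher (mean log2 ratio 0.51 ± 0.096, adjusted p = 0.00278) and CBR4, a mitochondrial carbonyl reductase, 1.70-fold higher (mean log2 ratio 0.77 ± 0.22, adjusted p = 0.00572). The count of rises was sensitive to the pools, with 8 without pool pair 1, 10 without pair 2, 7 without pair 3 and 5 without pair 4, and 9 under median centring or when the pairing was ignored.

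Conjugation and export genes gave 4 rises and 1 fall among 14 measured, with a median ratio of 0.042. Among all named genes tested, 21.7% were higher and 20.8% lower. ABCB1, the multidrug efflux pump P-glycoprotein, had log2 levels of 7.44, 7.37, 7.44 and 7.30 in the adenosine pools, against 9.95, 9.91, 10.26 and 9.83 in the control pools, and was 6.07-fold lower with adenosine (mean log2 ratio -2.60 ± 0.14, adjusted p = 0.000332). ABCC5, a transporter of glutathione conjugates and cyclic nucleotides, had log2 levels of 8.29, 8.73, 8.78 and 9.32 in the adenosine pools, against 7.02, 7.01, 7.07 and 7.44 in the control pools, and was 3.12-fold higher (mean log2 ratio 1.64 ± 0.26, adjusted p = 0.0016). Neither gene's groups came near to overlapping. SULT2A1, a sulfotransferase of steroids and alcohols, was 1.31-fold higher (mean log2 ratio 0.39 ± 0.041, adjusted p = 0.0016) and GSTCD, a gene with a glutathione transferase C-terminal domain, 1.31-fold higher (mean log2 ratio 0.39 ± 0.12, adjusted p = 0.00754). SULT2A1 was close to the detection level, above it on 7 of 8 control channels, and its log2 ratio was 0.96 with a normexp offset of 0. In a fit of the 4 arrays where Cy5 marked adenosine, 7 genes of this list rose.

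Retinoid genes had 3 rises and 2 falls among 15 measured, with a median ratio of 0.016. The array's own shares were 21.7% higher and 20.8% lower. BCO2, the mitochondrial oxygenase that cleaves carotenoids, had log2 levels of 7.65, 7.92, 7.60 and 7.88 in the adenosine pools, against 11.09, 11.41, 11.05 and 11.23 in the control pools. With 10.78-fold lower levels under adenosine and little spread between pairs (mean log2 ratio -3.43 ± 0.056, adjusted p = 7.52e-05), BCO2 had the lowest ratio of the 6 related lists. RARRES2, which encodes chemerin, was 1.53-fold higher (mean log2 ratio 0.62 ± 0.05, adjusted p = 0.000843), and TTR, a carrier of the plasma retinol-binding protein, 1.11-fold lower (mean log2 ratio -0.15 ± 0.038, adjusted p = 0.0145). STRA6, the receptor for retinol-binding protein, was 1.39-fold higher (mean log2 ratio 0.47 ± 0.18, adjusted p = 0.0119), but its ratio was 0.996 where Cy5 marked adenosine and -0.052 where Cy3 did. Without pool pair 4, or with the pairing ignored, the list had 1 rise and 1 fall.

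NRF2, encoded by NFE2L2, is the transcription factor best known for inducing glutathione transferases, NQO1 and GCLC, and KEAP1 holds it inactive. Of 12 measured regulators in this list, 7 fell and 1 rose, with a median ratio of -0.32. The list mixes NRF2 and its partners with genes that act against it, such as KEAP1 and BACH2, so these counts give no direction for NRF2 activity. SQSTM1, the autophagy receptor that binds KEAP1, had log2 levels of 10.43, 9.94, 9.64 and 9.56 in the adenosine pools, against 13.34, 12.09, 12.49 and 11.86 in the control pools, and was 5.88-fold lower (mean log2 ratio -2.55 ± 0.38, adjusted p = 0.00139). MAFG, a small partner of NRF2, had log2 levels of 7.73, 7.83, 7.58 and 7.57 in the adenosine pools, against 8.64, 9.28, 8.51 and 8.75 in the control pools, and was 2.17-fold lower (mean log2 ratio -1.12 ± 0.25, adjusted p = 0.00328). NFE2L1, the related factor NRF1, was 1.75-fold higher (mean log2 ratio 0.81 ± 0.20, adjusted p = 0.00408). BACH2, a repressor at the same DNA elements, was above the detection level on 0 of 8 adenosine channels and 7 of 8 control channels. Its measured level was 1.33-fold lower with adenosine (mean log2 ratio -0.41 ± 0.13, adjusted p = 0.00761), a ratio close to the detection level.

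NFE2L2 itself was lower, at mean log2 ratio -0.95 ± 0.43, adjusted p = 0.0187, and KEAP1 did not pass at -0.22 (adjusted p = 0.0784). Both are named for their role, and GPX2, GGT6 and CHAC2 after their values were seen, outside the rule of smallest p-values by which the other genes of the lists were chosen. The number of falls in this list was 3 without pool pair 4 or when the pairing was ignored, and 4 without pool pair 2.

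**Figure D5:**
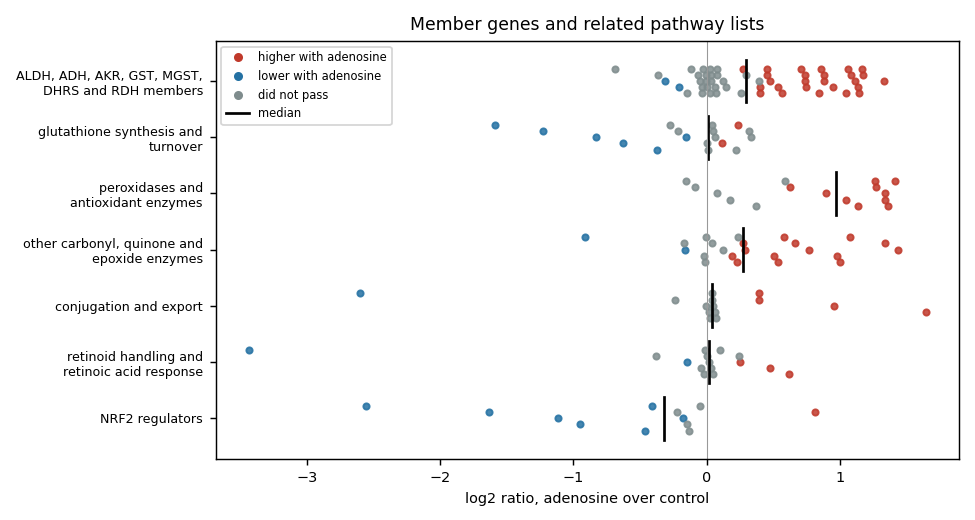
Log2 ratio of adenosine over control (horizontal axis) of every measured gene among the members and in 6 related lists (rows), coloured by call, with the median of each row as a bar. Medians run from 0.97 for peroxidases and antioxidant enzymes and 0.29 for the members to -0.32 for NRF2 regulators, and BCO2 at -3.43 lies farthest from 0.

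Markers of cell types were measured beside the members. Their counts stand beside 21.7% higher and 20.8% lower among all named genes tested. Of 13 cumulus and granulosa markers, all measured, 5 rose, 4 fell and 4 did not pass, with a log2 summed level between 14.9 and 15.2 in the adenosine pools and between 15.3 and 15.5 in the control pools. This sum is weighted by probe brightness and rests mostly on INHBA (13.8 with adenosine, 14.8 in controls) and INHA (13.7 and 12.8). It does not measure the amount of cumulus cell RNA. The markers included FSHR, the FSH receptor, at a ratio of 0.72, and HAS2, the hyaluronan synthase of cumulus expansion, at -4.77. Oocyte markers gave 1 rise and no fall among 9 measured, with a log2 summed level between 9.76 and 9.86 in the adenosine pools and between 9.76 and 10.2 in the control pools, and DPPA3, GDF9 and ZAR1 were not detected widely enough. Fibroblast markers gave 1 rise and 3 falls among 4 measured, with a summed level between 10.4 and 11.01 in the adenosine pools and between 12.2 and 12.7 in the control pools. COL1A2 was not detected widely enough.

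Endothelial markers gave 1 fall among 3 measured, with a log2 summed level between 7.80 and 7.84 in the adenosine pools and between 8.23 and 8.50 in the control pools, and CDH5 and PECAM1 were not detected widely enough. The fall was KDR, above the detection level on 0 of 8 adenosine channels and 8 of 8 control channels. Its adenosine level of 6.07 is background, which limits both the size of this fall and the difference in summed level. Leukocyte markers gave 1 fall among 3, at 8.66 to 10.2 in the adenosine pools and 8.71 to 10.6 in the control pools, and CD14 and CD79A were not detected widely enough. Theca markers gave no call among 2, at 7.52 to 7.73 in the adenosine pools and 7.48 to 8.50 in the control pools, with CYP17A1 and LHCGR not detected widely enough. Neither erythroid marker passed, at 7.37 to 7.61 in the adenosine pools and 7.35 to 7.49 in the control pools. Of the theca, endothelial and erythroid markers, 0 were above the detection level in both channels of all 8 arrays. Among oocyte markers 3 of 9 were, and among leukocyte markers 1 of 3. A summed level adds the background of every probe. The theca, endothelial and erythroid sums therefore lie near background, and the oocyte sums are partly background. At an unadjusted p under 0.05 in limma, the oocyte list still had 0 lower genes and the theca and erythroid lists 0 calls. The part of these markers, and of the fibroblast markers in particular, in the members' changes was not tested.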

How the data were processed

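Cumulus cell RNA of 4 adenosine and 4 control pools was amplified in 2 rounds of T7 transcription, labelled with Cy3 or Cy5 and hybridised to 8 two-colour arrays, per the labels' protocols. Per the file headers, the scanner tables give the raw mean foreground intensity and median background intensity of each of 45220 spots at wavelengths of 532 nm, read as Cy3, and 635 nm, read as Cy5. The authors' deposited value table holds log2 ratios. Set against the scanner ratios turned to adenosine over control it correlated between 0.954 and 0.985 on every array, with slopes of 1.10 to 1.13. Both were taken over the 15974 brighter of the probes above the detection level, and they settle its direction and, for these probes, its scale. Array medians over all probes were 0.00566 to 0.0524. The sources used here do not give its normalization or centring, and it served as an alternative. A table of 8 further columns, normalized with control spots, was not used.

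With limma 3.58.1 in R 4.3.3, background was corrected by normexp (offset 50, which shrinks ratios of dim probes) and arrays normalized by loess without control spots. The 2 arrays of a pool pair were averaged, which cancels a dye effect that is equal on both slides. A probe was kept when above the mean plus 2 SD of 153 negative control spots on both arrays of at least 3 of 4 pools in either group, which left 31948 of 43794. The 4 pair means were tested against 0 (lmFit, eBayes, two-sided, Benjamini-Hochberg, threshold 0.05), and 4 pairs limit the precision. Levels per pool are channel values taken after loess and Aquantile. Tables and figures were made in Python 3.11.15. The fit was tested on simulated data. Same-numbered arrays hold the same RNA by the labels. Their deviations from orientation means correlated between 0.762 and 0.924, and each of the 8 correlated most with its own number.

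Names came from the platform annotation, which can be old. A gene is its brightest kept probe, and 0 of 11 members with several kept probes had opposite calls. Of 62 member symbols, 50 matched the gene table of the Bos indicus assembly NIAB-ARS_B.indTharparkar_mat_pri_1.0, used for names and neighbours only. Members and lists were chosen with earlier results of these data known, so counts over them are descriptions. Pool values are given for the 25 called members with the largest ratios. RDH8, RDH11, ADH5, GSTM1, DHRS9 and RDH14 were added after their values were seen. Up to 4 genes of each related list with the smallest p are named. Alternatives changed background, normalization, filter, orientation, replicates, block and the rule for a gene's probe. No sequences were used.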

Additional observations from a re-analysis of the deposited data

Results flagged for a closer look

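Among 77 genes whose 4 pair ratios were examined (the members and the named genes of the related lists), 6 had 1 pool pair far from the other 3, with a gap to the nearest of them that took a larger part of the whole range than Dixon's critical value for 4 values. Chance alone flags about 1 in 20 such groups, so a few are to be met with anyway. MGST2 had a log2 ratio of adenosine over control of 0.23 in pool pair 3, against 1.04 to 1.18 in the others, a gap of 0.852 of the range. AKR7A2 had 0.88 in pool pair 2, against 1.24 to 1.31, a gap of 0.838. ALDH1L2 had -0.41 in pool pair 3, against -0.067 to -0.039, a gap of 0.923. ALDH1A3 had -0.022 in pool pair 3, against 0.045 to 0.047, a gap of 0.972 within a very narrow range. DHRS9 had -1.01 in pool pair 1, against -0.23 to -0.078, a gap of 0.832, and was above the detection level on 1 of 8 adenosine channels. ABCB1 had -2.81 in pool pair 3, against -2.54 to -2.51, a gap of 0.898, and was lower with adenosine in all 4 pairs.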

How the results depend on the processing

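Each result was computed again under 17 alternatives. Of the 28 called members, 10 kept their call in all alternatives in which they were tested, 18 lost it in at least 1, and 0 changed sign, while 10 members without a call passed in at least 1. Leaving out each pool pair in turn gave 16 to 25 members higher, 1 to 2 lower and a median ratio of 0.30 to 0.38, with 3170 to 4899 probes of the whole array higher and 3403 to 4897 lower. The fewest came without pool pair 4, where 16 members were higher. Fitting the pools with a replicate block, which keeps the pairing, equals averaging within pairs and gave the same 26 members higher and 2 lower. Without the replicate block 13 members and 3324 probes were higher. The median ratio of the members was 0.36 without background correction, 0.13 under median centring, 0.42 in the authors' deposited value table, 0.10 with no filter on dim probes, which adds 9 genes near the background, and 0.74 with the stricter filter, which leaves 32 genes. Median centring gave 20 members higher and 5 lower, and 1 member was lower with the authors' deposited values. Over the whole array median centring moved the calls to 38.5% higher and 61.5% lower, from a split of 50.3% higher and 49.7% lower, and the cause was not tested. Mean ratios had opposite signs in the dye orientations for 11 of 53 members, none called, and for 23 of 98 genes of the related lists, of which CHAC2, GGT6 and STRA6 were called. In fits of 1 orientation these included ALDH1A3, at -0.13 with adenosine in Cy5 alone (adjusted p = 0.0423) and STRA6, at -0.052 with adenosine in Cy3 alone (adjusted p = 0.633). Slide and orientation coincide and cannot be told apart. Ratios of genes near the detection level, among them the ALDH1A genes, AKR1E2, DHRS9, DHRS12, GSTA3, RDH11, SULT2A1 and BACH2, are limited by signal over background.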
